A study of Schizosaccharomyces pombe with 32 samples.

Results

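The genes described here encode the proteasome of the fission yeast Schizosaccharomyces pombe. They were chosen by gene symbol in the platform annotation, without use of any measured value: symbols made of rpn, rpt, pre, pup, pts or mts and a number, and the names pad1, pam1 and ump1. The rule found 28 genes, each with 1 probe set, among the 4972 probe sets of the arrays. It took no probe set under the name pad1, because that gene is listed as rpn11. Of the 4972 probe sets, 2903 carried 1 gene symbol, 16 carried several and 2053 are unnamed here. The core particle is represented by 10 genes, of which 4 encode subunits of the outer alpha rings (pre8, pre6, pup2, pre10), 5 encode subunits of the inner beta rings (pre3, pup1, pup3, pts1, pam1) and 1, ump1, encodes a factor that assembles the core. The regulatory particle is represented by 18 genes, of which 6 encode the ATPases of its base (rpt1 to rpt6), 5 encode scaffold proteins and ubiquitin receptors of the base (mts4, also known as rpn1, with rpn2, rpn10, rpn1301 and rpn1302) and 7 encode subunits of its lid (rpn3, rpn6, rpn7, rpn8, rpn9, rpn11, rpn12). The core genes pre1, pre4, pre5 and pre9 were not analysed here, and the probe set shared by rpn501 and rpn502 was kept out because it measures both genes.

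The proteasome is the cell's main machine for the controlled breakdown of proteins, most of them marked with chains of ubiquitin. The regulatory particle binds the ubiquitin chain, its lid removes the chain, and its ATPase ring unfolds the protein and threads it through the alpha ring into the core, where the beta subunits cut it. Hydrogen peroxide oxidises proteins, and in yeasts both the intact proteasome and the core alone are known to take part in the clearance of damaged proteins. The subunit roles given below are those known for the yeast proteasome, largely from the budding yeast Saccharomyces cerevisiae.

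The study followed strain JB50, a homothallic strain, which can switch mating type and mate with itself, in rich YES medium in shake flasks at 32 °C. The stressed series held 22 arrays from 2 cultures given 0.5 mM hydrogen peroxide, each sampled before the addition (0 min), at 5, 10 and 15 min, at 30, 50 and 60 min, and later at 90, 120, 180 and 240 min. The untreated series held 10 arrays from 2 cultures of the same strain without peroxide, each sampled at 0, 60, 120, 180 and 240 min. Each time of each series is thus a group of 2 arrays, 1 from each culture, and the cultures are the replicates; they were batch cultures that kept growing. The protocol mentions that starting density differed among stressed cultures but does not say which arrays came from which density.

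Total RNA was hybridised to single-colour Affymetrix arrays, and the values are the signal deposited for each probe set, on a linear scale that ran from 0.0029 to 64.6 over the 32 arrays, with array medians of 1.52 to 2.0. Signals are compared within a probe set and never between probe sets. Changes are differences of log2 signal, so a change of 1 is 2-fold, and limma estimated each probe set's spread jointly from all 16 groups. With only 2 arrays in a group, precision is low throughout. The signal is relative to the other RNA on the array, and less RNA per cell and fewer cells that express a gene cannot be told apart in whole cultures. The array of stressed culture 2 at 30 min stood apart: its highest correlation with any other array was 0.909, against at least 0.973 for the other 31. Some values of single genes below include that array, among them the fitted change of rpn3 at 30 min and the range of rpn7 from 30 min onward. The calls without that array are in the closing section. Among the 4 genes listed as references for the peroxide response, 1 rose past the threshold at 60 min: hsp16, a small heat shock protein gene, by 2.57 ± 0.51 (log2, SE, n = 2 cultures, adjusted p 0.0318). For ctt1, the catalase gene, the change at 60 min was 3.35 ± 0.87 with an adjusted p of 0.0882.

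After peroxide the proteasome genes stood slightly higher as a group from 50 min onward, by about 0.2 on the log2 scale, but no single gene passed the test at any time. At 60 min the median change of the 28 genes was 0.24, against -0.11 over all 4972 probe sets, and 24 of the 28 were higher than at 0 min in both cultures. The changes ran from -0.17 in rpt3, an ATPase of the base, to 0.61 in pre3, a catalytic beta subunit. At 240 min, the median was again 0.24, against -0.06 over all probe sets. In the comparison of each stressed time with 0 min, limma called 0 of the 28 genes at any of the 10 times, with Benjamini-Hochberg adjustment over all probe sets and a threshold of 0.05. Over all probe sets, 74 of 4972 (1.49%) were called at 1 or more of the 10 times. At an unadjusted p under 0.05, 1 proteasome gene (rpn3 at 30 min) passed, and 0 passed at each of the other 9 times. The F-test over the 10 times called 0 of the 28 genes as well, against 24 probe sets (0.483%) in all, and the lowest unadjusted F-test p among them was 0.035, in rpn3, a value that includes the 30 min array of culture 2. Without that array the F-test again called 0 of the 28. With all arrays, 1 of the 28 had an unadjusted F-test p under 0.05, against 457 of the 4972 probe sets.

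**Figure D1:**
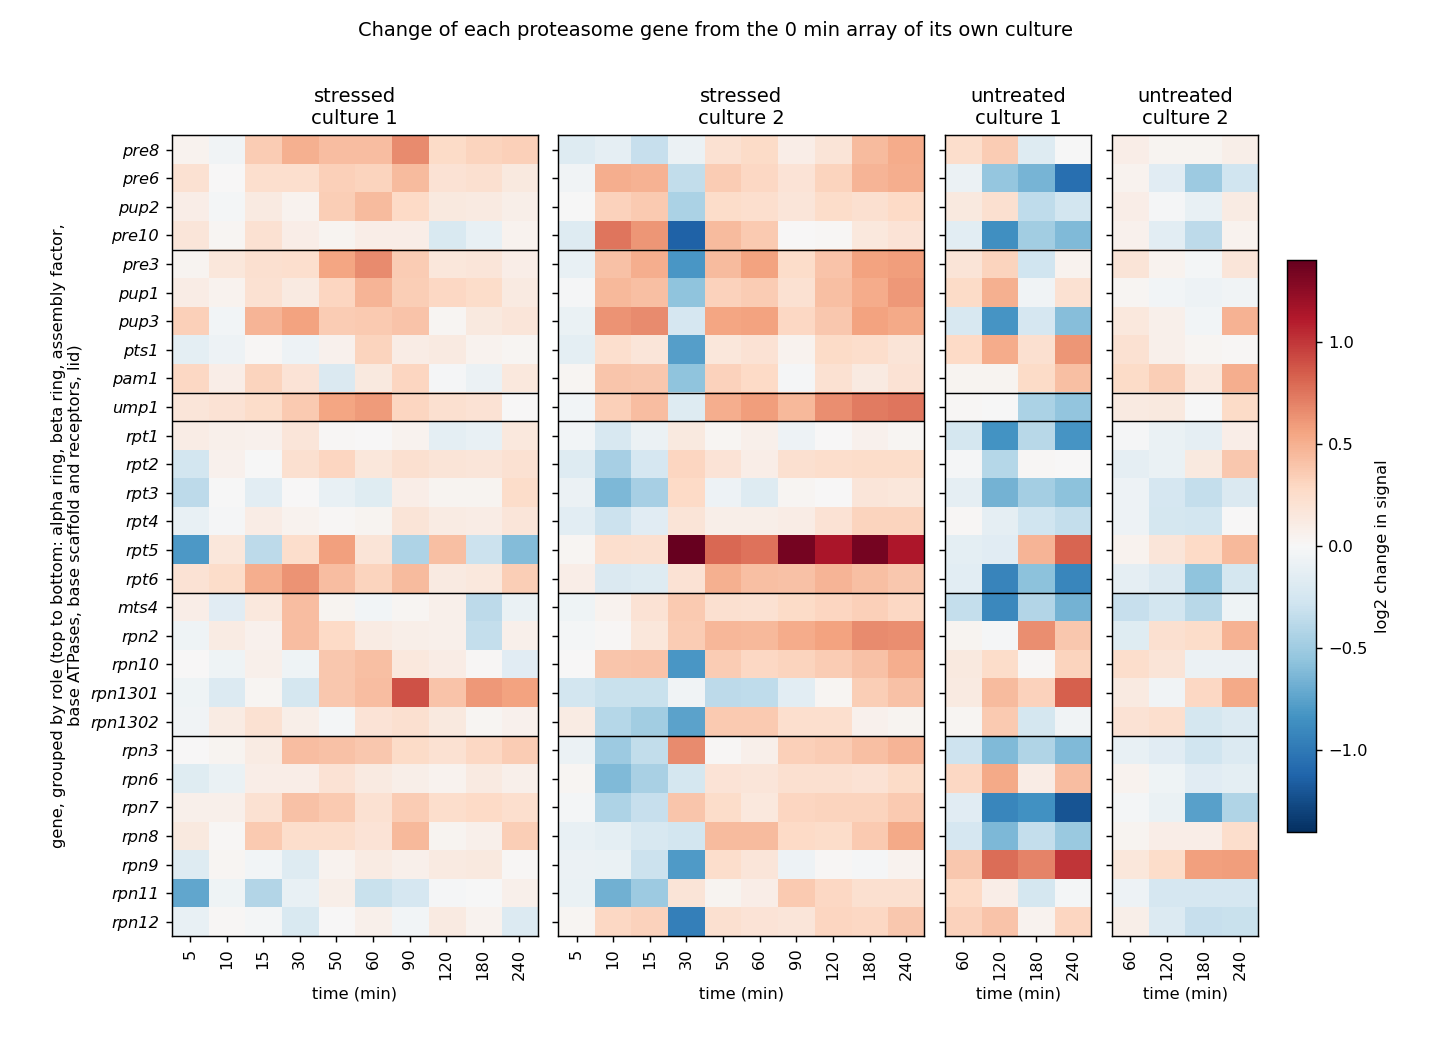
Log2 change in signal of each of the 28 genes (rows, grouped by role) from the 0 min array of its own culture, by time in min (columns) in the 4 cultures; red is higher and blue lower, and each cell is 1 array. From 50 min the 2 stressed panels are mostly red, the 30 min column of stressed culture 2 shows all core genes lower, and in both untreated panels rpn7 turns blue and rpn9 red.

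The direction of the change was shared by the 2 stressed cultures mainly at the later times. At 5 min, 3 genes were higher in both cultures than in the culture's own 0 min array (17.9% of all probe sets were), and 8 were lower in both. At 10 min, 9 were higher in both (21.6% of all), at 15 min 12 (29.7%) and at 30 min 10 (33.3%). In culture 1 alone, 22 of the 28 were higher at 30 min, against 51.3% of all probe sets. Up to 30 min, 12 to 17 of the 28 differed in direction between the cultures. At 50 min, 24 of the 28 were higher in both (32.8% of all probe sets), at 60 min 24 (32.8%), and at 90 min 21 (25.5%). At 120 min, 24 were higher in both (31.5% of all), at 180 min 20 (19.9%) and at 240 min 24 (21.3%). From 90 min on, 0 of the 28 were lower in both cultures. The times of 1 culture share its 0 min array, so these counts are not independent of each other.

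The size of the shift was small beside the error of a single gene. The median standard error of a change was 0.305 among the proteasome genes and 0.395 over all probe sets. At 60 min the 95% interval of the change lay wholly within 2-fold either way for 19 of the 28 genes, and at 240 min for 21. For those genes a change of 2-fold or more lies outside the interval, which is not adjusted for the number of genes.

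**Figure D2:**
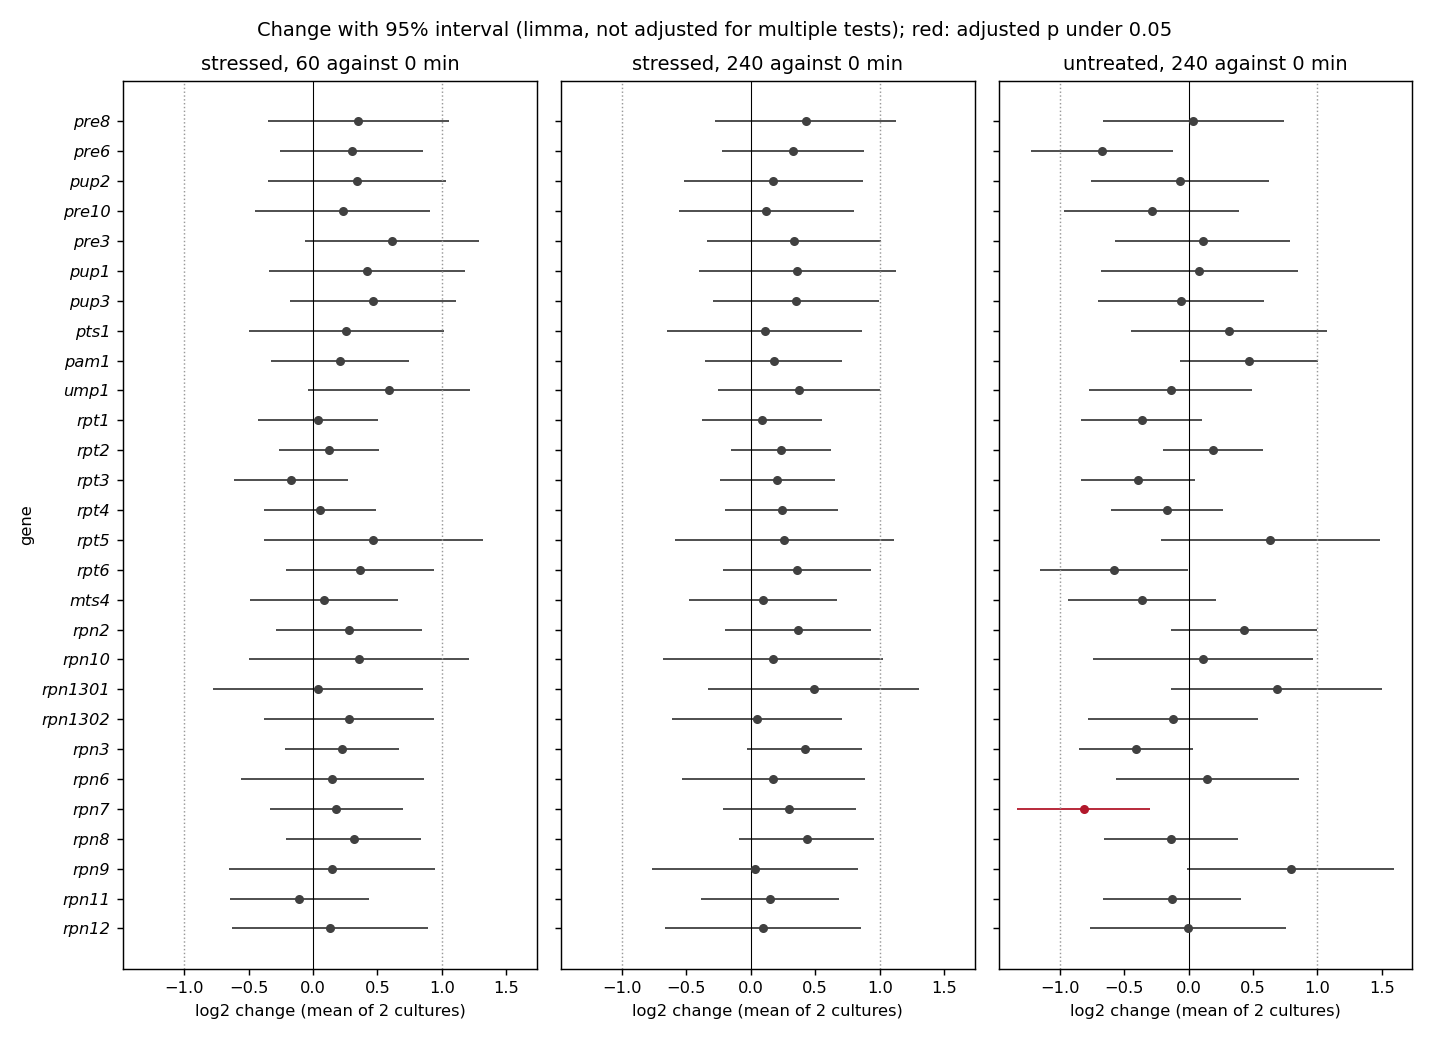
Log2 change (mean of 2 cultures) of each gene with its 95% interval from limma for stressed 60 min, stressed 240 min and untreated 240 min, each against 0 min of the same series; dotted lines mark 2-fold. At 60 min 26 of the 28 points lie above 0 with intervals that include 0, and rpn7 at 240 min in the untreated series, in red, is the gene called.

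In the core particle, the alpha ring genes lay within a narrow range at 60 min. Their changes were 0.35 in pre8, 0.30 in pre6, 0.34 in pup2 and 0.23 in pre10, and all 4 were higher in both cultures. For pre8, the signal was 9.15 and 8.07 at 0 min in cultures 1 and 2, 12.4 and 9.73 at 60 min, and 11.5 and 11.5 at 240 min. Both later pairs lay above both 0 min values, and the change at 240 min was 0.42 ± 0.34 (SE, n = 2, adjusted p 0.942).

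The beta ring holds the subunits that cut proteins. The signal of pre3, the caspase-like subunit, was 13.8 and 11.98 at 0 min, 21.9 and 17.7 at 60 min and 14.7 and 17.9 at 240 min. Both 60 min values exceeded both 0 min values, with a change of 0.61 ± 0.32 (SE, n = 2, adjusted p 0.306, 95% interval -0.06 to 1.29). In stressed culture 1 pre3 had its peak at 60 min, while in culture 2 the highest signal came at 240 min. The trypsin-like subunit, pup1, had signals of 10.7 and 7.91 at 0 min and 14.9 and 10.1 at 60 min. Its 0 min and 60 min groups overlapped, because culture 1 was brighter than culture 2 at both times, and the change was 0.42 ± 0.36 (adjusted p 0.548). For pts1, the chymotrypsin-like subunit, the signals were 8.85 and 7.72 at 0 min and 11.0 and 8.91 at 60 min, a change of 0.26 ± 0.36 (adjusted p 0.723). The 2 beta subunits that are not catalytic gave 0.47 (pup3) and 0.21 (pam1) at 60 min, so all 5 beta ring genes stood higher without passing the test.

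The assembly factor gene ump1, whose product joins the forming core and is degraded by it once the core is complete, had a change close to that of pre3 at 60 min. In culture 1 its signal went from 11.0 at 0 min through 12.4, 12.7, 13.2, 14.2 and 16.2 to 16.7 at 60 min, and then to 13.5, 12.9, 12.7 and 11.0 at 240 min. In culture 2 it was 8.22 at 0 min, then 7.97, 10.4, 11.1, 7.23 and 11.7, and 12.3 at 60 min, followed by 11.3, 12.9, 13.6 and 13.8 at 240 min. Both cultures were thus higher at 60 min by nearly the same amount, 0.60 and 0.58, and these changes parted afterwards. At 240 min culture 1 was back at its starting signal (a difference of 0.00) and culture 2 stood 0.75 above its own. The fitted change was 0.59 ± 0.30 at 60 min (SE, n = 2, adjusted p 0.294, 95% interval -0.04 to 1.22) and 0.37 ± 0.30 at 240 min (adjusted p 0.942).

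**Figure D3:**
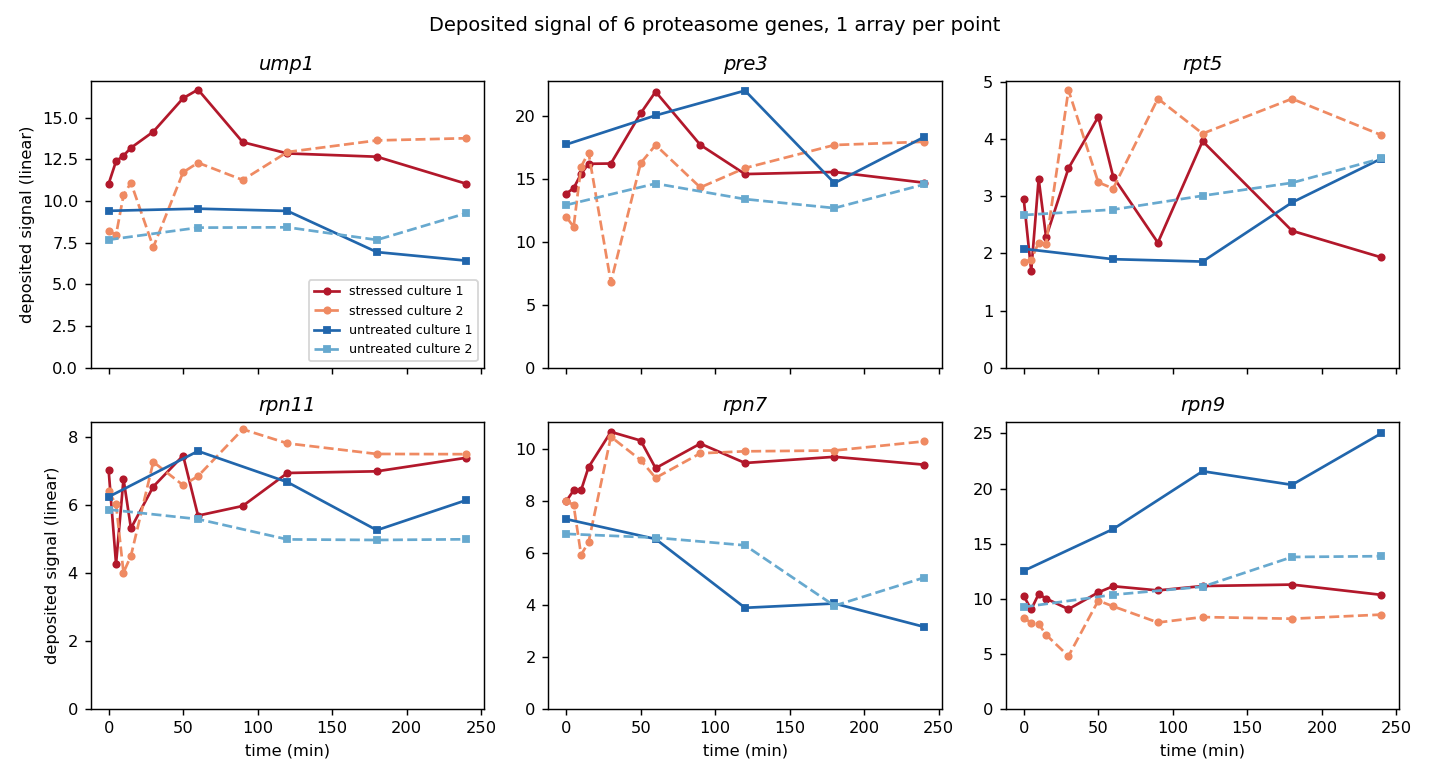
Deposited signal (linear scale, from 0) of ump1, pre3, rpt5, rpn11, rpn7 and rpn9 by time in min, 1 array per point; red lines are the stressed cultures and blue lines the untreated ones, and each panel has its own axis. The 2 stressed lines of rpn7 stay between 8.88 and 10.7 from 30 min while both untreated lines end at 3.15 and 5.04, and rpn9 is the reverse, with untreated values of 25.02 and 13.9 at 240 min.

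Among the ATPase genes of the base, 4 stood close to their 0 min level at 60 min, and rpt5 and rpt6 stood higher. The median over the 6 genes at 60 min was 0.09 in each stressed culture, beside core medians of 0.40 and 0.32. The signal of rpt6 was 8.27 and 8.996 at 0 min, 10.2 and 12.1 at 60 min and 10.5 and 11.7 at 240 min. Both later pairs lay above both starting values, with a change of 0.37 ± 0.27 at 60 min (SE, n = 2, adjusted p 0.472; 0.31 and 0.42 in the 2 cultures) and 0.36 ± 0.27 at 240 min (adjusted p 0.942). On the low side, the signal of rpt3 was 7.67 and 7.24 at 0 min and 6.84 and 6.40 at 60 min, so both values lay below both starting values, with a change of -0.17 ± 0.21 (SE, n = 2, adjusted p 0.687). For rpt1 the values were 10.4 and 10.3 at 0 min and 10.5 and 10.9 at 60 min, a change of 0.04 ± 0.22 whose 95% interval ran from -0.43 to 0.50. The gene rpt2 had signals of 9.46 and 9.39 at 0 min, 10.5 and 10.0 at 60 min and 10.9 and 11.3 at 240 min, and its change at 240 min was 0.24 ± 0.19 (adjusted p 0.942).

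For rpt5 the cultures went apart. In culture 1 its signal was 2.95 at 0 min, 3.34 at 60 min and 1.93 at 240 min, and in culture 2 it was 1.85, 3.14 and 4.07. Over all stressed arrays rpt5 ran from 1.69 to 4.86, and in culture 1 the first 4 times gave 2.95, 1.69, 3.30 and 2.28. The fitted change was 0.47 ± 0.40 at 60 min (adjusted p 0.543) and 0.26 ± 0.40 at 240 min, and at 240 min the cultures had opposite signs, -0.61 in culture 1 and 1.13 in culture 2.

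Among the scaffold and receptor genes of the base, rpn10 encodes a receptor that binds ubiquitin chains. Its signal was 8.91 and 5.75 at 0 min, 11.9 and 7.05 at 60 min and 7.97 and 8.17 at 240 min. The groups overlapped at both times, and the change was 0.36 ± 0.41 at 60 min (SE, n = 2, adjusted p 0.661). The other receptor genes, rpn1301 and rpn1302, are paralogs that both correspond to rpn13, and each has its own probe set. For rpn1301 the signal was 2.79 and 3.06 at 0 min, 3.76 and 2.39 at 60 min and 4.11 and 4.07 at 240 min. It had the highest change of the 28 genes at 240 min, 0.49 ± 0.39 (adjusted p 0.942), after opposite directions in the 2 cultures at 60 min. For rpn1302 the signal was 2.29 and 1.98 at 0 min and 2.39 and 2.04 at 240 min, a change of 0.05 ± 0.31. The scaffold genes mts4 and rpn2 gave 0.08 and 0.28 at 60 min, and 0.10 and 0.37 at 240 min.

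In the lid, rpn11 encodes the metalloprotease that cuts the ubiquitin chain from the substrate. Its signal was 7.04 and 6.40 at 0 min, 4.26 and 6.01 at 5 min, 5.68 and 6.84 at 60 min and 7.38 and 7.49 at 240 min. It had the lowest mean change of the 28 genes at 5 min (-0.41), 10 min (-0.37) and 15 min (-0.46), and none of these passed limma's test, with adjusted p-values of 0.999 to 1. At 60 min its change was -0.11 ± 0.26 (SE, n = 2, adjusted p 0.850), with 1 culture lower and the other higher.

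The lid gene rpn3, a structural subunit, had the lowest F-test p. Its signal was 6.32 and 7.04 at 0 min, 8.51 and 11.1 at 30 min, 8.24 and 7.38 at 60 min and 8.12 and 9.79 at 240 min. Each of those later pairs lay above both starting values, and the change at 30 min was 0.54 ± 0.21 (SE, n = 2, unadjusted p 0.0193, adjusted p 0.24). Culture 1 alone, without the 30 min array that stood apart, gave 0.43 for rpn3. The gene rpn8, whose product pairs with Rpn11, had signals of 5.87 and 6.69 at 0 min and 7.42 and 9.63 at 240 min, a change of 0.43 ± 0.25 (adjusted p 0.942). Both of its 240 min values lay above both 0 min values. The other lid genes rpn6, rpn9 and rpn12 gave 0.15, 0.15 and 0.13 at 60 min.

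Within the first 30 min, core and regulatory genes went apart in stressed culture 2. At 10 min, 9 of its 10 core genes were above their 0 min signal, with a median of 0.40, against 1 of 6 ATPase genes and 1 of 7 lid genes, and the regulatory median was -0.26. At 15 min the medians were 0.43 and -0.23. Examples were pre10, which went from 5.54 to 9.29 at 10 min, pup3, from 7.05 to 10.9, and, in the other direction, rpt3, from 7.24 to 4.69, and rpn11, from 6.40 to 4.01. At 30 min, on the array that stood apart, 0 of 10 core genes and 6 of 6 ATPase genes were above 0 min, with medians of -0.50 and 0.24. The lid stayed mostly low, with 3 of 7 genes above 0 min and a median of -0.25. The median over the whole regulatory particle, 0.18, was therefore carried by the ATPases. The scaffold and receptor genes were mixed at both times, with 3 of 5 above 0 min at 10 min (median 0.015) and 2 of 5 at 30 min (median -0.05). There pre10 was at 2.53 and pre3 at 6.79, each the lowest of its 32 arrays, while rpt5 was at 4.86 and rpn3 at 11.1, each the highest. The regulatory genes rpn10 and rpn12 followed the core genes, with rpn10 at 7.52 at 10 min and 3.27 at 30 min, and rpn12 at 9.62 and 4.07.

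Culture 1 did not show gaps of this size. Its core median less its regulatory median was -0.01 at 10 min, 0.16 at 15 min and 0.08 at 30 min, against 0.66, 0.66 and -0.69 in culture 2. The difference between particles at these times thus comes from 1 culture and has no replicate. At 60 min, core genes stood above regulatory genes in both stressed cultures, by 0.26 and 0.15, and at 240 min by -0.01 and 0.18. In the untreated cultures the same differences were 0.09 and 0.13 at 60 min and -0.09 and 0.18 at 240 min. The sign at 60 min was thus the same without peroxide.

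**Figure D4:**
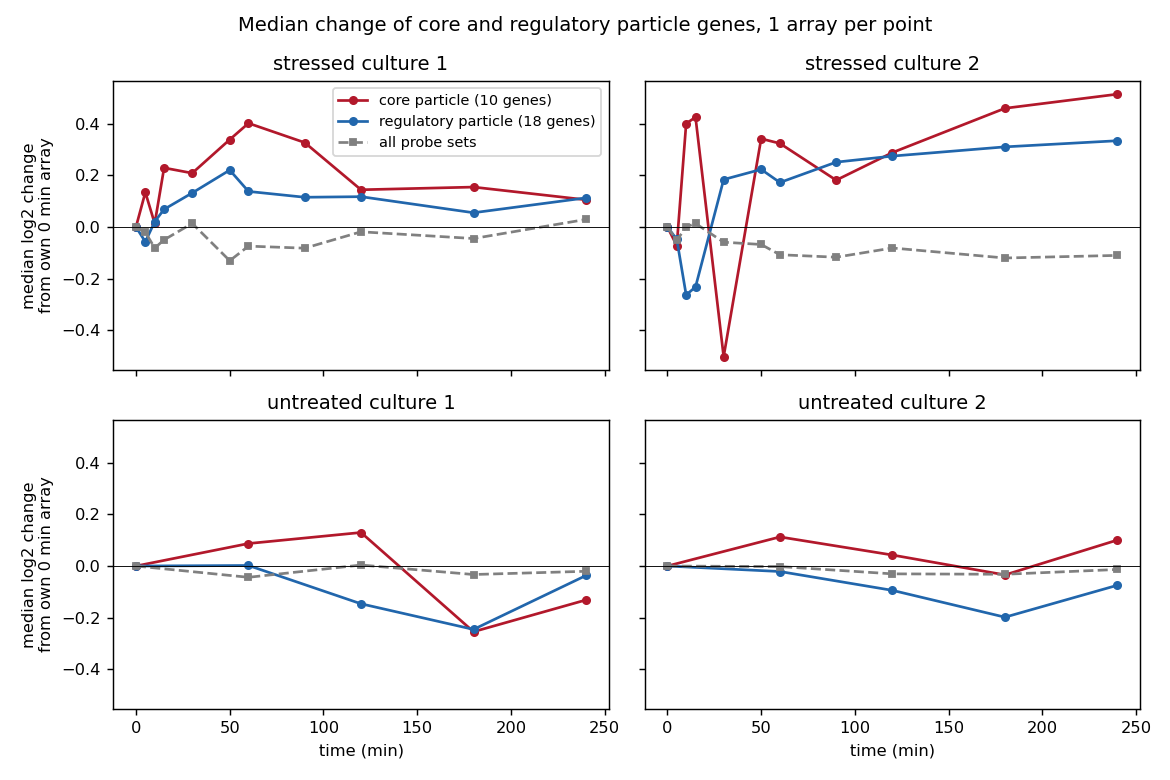
Median log2 change from the culture's own 0 min array of the 10 core particle genes (red), the 18 regulatory particle genes (blue) and all probe sets (grey, dashed) by time in min in each of the 4 cultures, 1 array per point. The particles part in stressed culture 2 at 10, 15 and 30 min, with core medians of 0.40, 0.43 and -0.50, and both lie above the grey line from 50 min in both stressed cultures.

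After 60 min the changes of the 2 stressed cultures, each from its own 0 min array, drifted apart. The median over all 28 genes was 0.23 in both at 90 min. It then was 0.12, 0.11 and 0.11 in culture 1 at 120, 180 and 240 min, and 0.28, 0.32 and 0.37 in culture 2. At 240 min, 24 of the 28 genes were above their 0 min signal in culture 1 (53.8% of all probe sets were) and 28 of 28 in culture 2 (43.7%). For the core genes, the last medians were 0.11 (culture 1) and 0.51 (culture 2), so the size of the late shift rests mostly on culture 2. The cultures also differed at 0 min, and their signals did not all move apart. The standard deviation between the 2 cultures went from 1.97 at 0 min to 0.25 at 240 min in pup1. In pre3 it went from 1.30 to 2.30. The split in the changes was not particular to the proteasome genes. The peroxide reference genes at 240 min gave, in cultures 1 and 2, -0.47 and 3.47 (srx1), 0.19 and 3.59 (ctt1), -0.22 and 1.82 (gpx1) and 1.56 and 3.26 (hsp16). The cause of the split was not tested.

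In the untreated series, limma called 1 of the 28 genes: rpn7, a lid subunit that helps hold the lid together, lower at 240 min. Its signal in untreated culture 1 was 7.30 at 0 min, 6.53 at 60, 3.89 at 120, 4.05 at 180 and 3.15 at 240 min. In untreated culture 2 it was 6.73, 6.58, 6.29, 3.96 and 5.04. Both cultures ended below both starting values, and the change at 240 min was -0.81 ± 0.25 (log2, SE, n = 2 cultures, limma's adjusted p 0.0417). Over all probe sets, 511 (10.3%) were called at 1 or more of the 4 untreated times, and 197 (3.96%) were called lower at 240 min, so 1 call among 28 genes is close to that background. At 180 min the change of rpn7 was -0.81 with an adjusted p of 0.0642. The call at 240 min was lost when any 1 of the 4 cultures was left out, with changes from -1.21 to -0.42, and the closing section gives the other settings that end it.

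The culture number marks 1 flask followed through time, and with it as a replicate block the adjusted p of rpn7 was 0.0131 at 240 min and 0.019 at 180 min. With the block, rpn9, another lid gene, also passed, in the opposite direction. Its signal in untreated culture 1 was 12.5 at 0 min and 16.3, 21.6, 20.3 and 25.02 at the later times, and in culture 2 it was 9.24, then 10.4, 11.1, 13.8 and 13.9. Every later value of each culture lay above its own start, with a change at 240 min of 0.79 ± 0.38 without the block (SE, n = 2, adjusted p 0.226) and an adjusted p of 0.005 with it. At 180 min the change of rpn9 was 0.64, with adjusted p-values of 0.458 without and 0.026 with the block. In the fit with the block, 2 of the 28 genes were called at 1 or more untreated times, against 998 probe sets (20.1%).

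The other proteasome genes were mixed in direction in the untreated cultures. Lower in both cultures than at 0 min were 7 of the 28 at 60 min (33.9% of all probe sets), 10 at 120 min (33.8%), 16 at 180 min (41.1%) and 8 at 240 min (37.5%). As a group they had a median change of -0.06 at 240 min, against -0.03 over all probe sets. The alpha ring gene pre6, with signals of 7.97 and 7.32 at 0 min and 3.83 and 6.02 at 240 min, gave -0.67 ± 0.26 (SE, n = 2, adjusted p 0.126). Its values at 240 min lay below both starting values. The ATPase gene rpt6, with 7.97 and 8.15 at 0 min and 4.22 and 6.90 at 240 min, gave -0.58 ± 0.27 (adjusted p 0.215). On the other side stood rpn1301 at 0.68 ± 0.39 (adjusted p 0.318) and rpt5 at 0.63 ± 0.40 (adjusted p 0.379). At 240 min untreated, 20 of the 28 intervals lay within 2-fold either way. Genes of mating and meiotic entry, which nutrient shortage turns on in a homothallic strain, were called in both series: of 9 listed, 4 at 1 or more untreated times (10.3% of all probe sets) and 2 at 1 or more stressed times (1.49%). These counts hold calls in either direction. At 60 min after peroxide 0 of the 9 were called, with a median of -0.21 and changes from -2.79 in mfm2 to 0.43 in mei3. At 240 min untreated 3 were called higher, among them mam2, a pheromone receptor gene, by 3.21, and 2 were called lower in the stressed change less the untreated change. Their part in the proteasome values was not tested.

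A direct comparison of the stressed change with the untreated change at the same time called 0 of the 28 genes at 60, 120, 180 or 240 min by limma, against 95 probe sets (1.91%) at 1 or more of these times. At an unadjusted p under 0.05, 0, 3, 4 and 4 of the 28 genes passed at the 4 times. Over all 4972 probe sets, 329, 421, 508 and 590 passed, so the counts from 120 min on are close to that background. The median difference over the 28 genes was 0.21, 0.28, 0.37 and 0.28, against -0.08, -0.03, -0.07 and -0.01 over all probe sets. The 4 times share the 0 min arrays of both series. The 4 genes with unadjusted p under 0.05 at 240 min were rpn7, with a difference of 1.11 ± 0.35 (SE, adjusted p 0.132), rpn3 with 0.83 ± 0.30 (0.219), pre6 with 0.996 ± 0.37 (0.236) and rpt6 with 0.94 ± 0.39 (0.309).

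For rpn7 the stressed signals from 30 min onward lay between 8.88 and 10.7, above the 0 min signals of 7.99 and 8.00, while the untreated signals at 180 and 240 min lay between 3.15 and 5.04. Its difference of changes was 1.10 at 180 min (adjusted p 0.158), and with the replicate block it passed at both times, with an adjusted p of 0.0453 at 180 min and 0.0368 at 240 min. In that fit 1 of the 28 genes was called at 1 or more times, against 360 probe sets (7.24%). For rpn9 the difference ran the other way, at -0.76 ± 0.54 at 240 min (adjusted p 0.675). The standard errors of a difference of changes were larger, with a median of 0.431, and at 240 min 2 of the 28 intervals lay within 2-fold either way.

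A gene could also be counted by direction alone. The 180 min arrays showed 12 of the 28 genes higher in both stressed cultures and lower in both untreated cultures than at their own 0 min, against 6.62% of all probe sets. The 240 min arrays showed 7, against 6.30%. Before peroxide, limma found no difference between the series past the threshold: it called 0 of 28 at 0 min and 0 of 4972 probe sets (0%) in all. At an unadjusted p under 0.05, 0 of the 28 passed, against 65 of all 4972. The differences at 0 min ran from -0.43 in rpn12 to 0.29 in rpt3, stressed less untreated.

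How the genes varied with each other was described by the correlation of each with the mean of the other 27, over arrays and after each array's median was taken off. The arrays of 1 culture share a flask and a starting point, so no p is given. Over the 22 stressed arrays the median r was 0.553, with 16 of 28 genes above 0.5, and it ran from 0.142 in rpt1 to 0.830 in ump1. The other probe sets had a median r of -0.0829 with the mean of the 28. Pairs within the core had a median r of 0.733, pairs within the regulatory particle 0.415, and pairs across the particles 0.101. Without the 30 min array of culture 2 these were 0.575, 0.454 and 0.235, so that array carries part of the closeness within the core and of the distance between the particles. Over the 10 untreated arrays the median r was 0.216, and it ran from -0.740 in rpn9 to 0.836 in rpt4, with a median of 0.0637 for the other probe sets. Pairs there had a median r of -0.0618 within the core, -0.020 within the regulatory particle and 0.0367 across the particles.

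Other genes of the ubiquitin pathway were read from fixed lists. As background for their counts, 1.49% of all probe sets were called at 1 or more stressed times and 10.3% at 1 or more untreated times. Of 3 ubiquitin genes found on the arrays, limma called 0 at any stressed or untreated time. The polyubiquitin gene ubi4 gave 0.70 ± 0.30 at 60 min after peroxide (SE, n = 2, adjusted p 0.224), with 0.67 and 0.72 in the 2 cultures. The other ubiquitin genes, ubi1 and ubi3, gave -0.30 and -0.18, both lower in both cultures, and the median of the 3 genes was -0.18. At 240 min ubi4 gave 0.54 after peroxide (-0.002 and 1.08 in the 2 cultures) and 0.78 untreated (0.98 and 0.58). At that time ubi1 and ubi3 gave -0.12 and -0.08 after peroxide, and -0.12 and 0.09 untreated. Of 8 genes of shuttle receptors and proteasome-bound factors, 0 were called after peroxide and 2 in the untreated series. There at 240 min rhp23, which brings ubiquitinated proteins to the proteasome, fell by 1.05 ± 0.33 (adjusted p 0.0455), and mud1, a ubiquitin-binding factor, rose by 0.93 ± 0.27 (adjusted p 0.0373). The median of these 8 genes at 60 min after peroxide was 0.14.

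Of 6 genes of the Cdc48 segregase, which pulls ubiquitinated proteins out of complexes ahead of the proteasome, 0 were called in either series. All 6 had positive changes at 60 min after peroxide, from 0.34 in cdc48 to 1.05 in npl4, with a median of 0.74. At 240 min their median was 0.52 after peroxide and 0.33 untreated, and the untreated changes ran from -1.18 in ubx3 to 1.31 in ufd1. The list of activating enzymes held 2 genes on the arrays, of which 0 were called. The ubiquitin-activating enzyme gene ptr3 gave 0.66 ± 0.43 at 60 min (adjusted p 0.411), and uba3, which belongs to the activating enzyme of the ubiquitin-like protein NEDD8, gave 0.29 ± 0.40 (adjusted p 0.714). Beside these, the 8 genes of the CCT chaperonin, another large ring complex, had a median of -0.55 at 60 min, and the 111 genes of cytosolic ribosomal proteins had -0.14. Among the CCT genes 0 were called in either series, and among the ribosomal protein genes 0 were called after peroxide and 2 in the untreated series. The shares over all probe sets were 1.49% at 1 or more stressed times and 10.3% at 1 or more untreated times. None of these lists was tested against the proteasome genes.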

How the data were processed

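The authors deposited 1 linear signal for each probe set and array. Background correction, summarisation and scaling are not given in the sources used here. Series, time and culture were read from the sample titles. Symbols came from the platform annotation, and all 28 genes matched RefSeq (ASM294v3) by gene ID with the same symbol. No coordinates or sequences were used.

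Signals were log2-transformed with no pseudocount, and a model with 1 mean for each group was fitted to the 32 arrays by limma 3.58.1 under R 4.3.3 (16 residual and 3.23 prior degrees of freedom). Each of 19 comparisons was adjusted by Benjamini-Hochberg over 4972 probe sets (two-sided). The fit was also run on simulated data in which arrays were independent and cultures did not differ. That run cannot show how repeated sampling of 1 flask affects the p-values. The rule for the members uses no measured value. Even so, the members, lists and genes given in full were chosen with earlier results of these data known. Genes given in full were those called, those with the 6 lowest F-test p-values, the 3 highest and 3 lowest changes at 60 and 240 min, and those of set roles (catalytic subunits, rpn11, rpn10, ump1); others are examples.

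Culture numbers pair arrays within a series, since each was 1 flask. The difference between cultures correlated across probe sets over pairs of times with a median r of 0.707 in the untreated series (10 of 10 pairs above 0.1) and 0.259 in the stressed series (34 of 55 pairs, lowest -0.369). In the main fit the p-values rest on the spread between the 2 arrays of a group, pooled over times. Arrays of 1 flask recur over those times, so the 16 residual degrees of freedom are not 16 independent measures of the spread between cultures. Alternatives were normalization, filters, pseudocount, arrays in the fit, the replicate block, the 0 min reference and leaving out each culture.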

Additional observations from a re-analysis of the deposited data

Results flagged for a closer look

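At several times the median change was positive in both stressed cultures and negative in both untreated cultures. The difference between the series was not tested, and each value is the mean of the stressed medians less the mean of the untreated medians on the log2 scale. Over all 28 genes it was 0.23 at 120 min and 0.39 at 180 min. For the 10 core genes it was 0.45 at 180 min, and for the 18 regulatory genes 0.32 at 120 min, 0.40 at 180 min and 0.28 at 240 min. Within the core, the alpha ring gave 0.31 at 120 min and 0.58 at 180 min, and the beta ring 0.37 at 180 min. Within the regulatory particle, the ATPases gave 0.19 at 60 min, 0.51 at 120 min and 0.44 at 180 min, and the lid 0.45 at 180 min and 0.33 at 240 min. These sets share genes, and the times share the 0 min arrays, so the values are not independent.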

How the results depend on the processing

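The number of proteasome genes called after peroxide stayed at 0 under each alternative run, also without the 30 min array of stressed culture 2. Calls in the untreated series, summed over the 4 times, were 1 as reported, 4 with the culture number as a replicate block (rpn7 and rpn9 at 180 and 240 min), and 0 with quantile normalization, with each array centred on its median, and with stressed arrays after 60 min left out of the fit. With only the arrays of the groups compared there was 1, rpn7 at 180 min in place of 240 min. They were 0 to 0 when each culture was left out, which leaves lone arrays assumed to vary like the other groups. Calls for the difference of changes were 0 as reported and 2 with the replicate block (rpn7). The replicate block changed no other call. The adjusted p of rpn7 at 240 min untreated ran from 0.0131 to 0.888 over 13 alternatives, and the call held in 5 of them. The median change at 60 min was 0.17 with quantile normalization and 0.19 to 0.25 when a culture was left out, and that at 240 min was 0.11 to 0.37. Of 497 values of single genes, 477 kept direction and side of the threshold, 10 reversed, 8 lost the threshold and 2 passed it. Reversed with quantile normalization were rpt1 at 60 min (-0.027) and rpn9 at 240 min (-0.024). Reversed against all 4 arrays at 0 min were rpn1301 at 60 min (-0.016), rpn9 (-0.081), rpn1302 (-0.048) and pts1 (-0.013) at 240 min. Leaving out a culture gave -0.31 to 0.10 for rpn11 and -0.36 to 0.43 for rpn1301 at 60 min, and -0.61 to 1.13 for rpt5 and -0.16 to 0.51 for rpn10 at 240 min. The cause of these reversals was not tested. Chosen after seeing the data, the count of genes higher in both stressed cultures was also taken with centred arrays (24 at 60 min, 21 at 240 min) and against all 4 arrays at 0 min (18 and 22). With 2 arrays per group and no detection calls used, the lowest signals have no known floor.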

Other observations

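The probe set shared by rpn501 and rpn502, copies of a lid gene, was not called in any comparison by limma. Its change after peroxide was 0.11 ± 0.35 (log2, SE, n = 2 cultures) at 60 min and 0.04 ± 0.35 at 240 min. In the untreated series it was -0.50 ± 0.35 at 240 min (adjusted p 0.439), and the difference of changes there was 0.53 ± 0.50 (adjusted p 0.785).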
